A study of Danio rerio with 2 samples.

Results

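Solute carriers (SLC) are membrane proteins that move sugars, amino acids, ions, vitamins and other small molecules across cell and organelle membranes, and they are named by numbered family. The 96 names described here are gene names on a zebrafish expression array that begin with slc, a family number, the letter a and a member number. The choice used the names alone: 98 of the array's 36287 gene names matched, and 2 of these are not reported. The 96 names were printed as 154 of 43803 spots and covered 32 SLC families. By spots, 52 names had 1, 31 had 2 and 13 had 3 or more. In the RefSeq and Ensembl gene tables, 71 of the names are current symbols, 24 belong to genes that now carry another symbol, and 1 (slc7a3) had no match. A pair of the names are not transporters: slc7a6os is encoded opposite slc7a6, and slc9a3r2, now nherf1a, encodes a scaffold protein.

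MO2-ers2a embryos came from ovulated zebrafish oocytes injected with 10.3 ng per embryo of a morpholino, an antisense oligonucleotide, that blocks translation of estrogen receptor beta2, spelled ers2a in the labels. The MO-control embryos received 10.3 ng of a control morpholino, and both kinds were collected at 8 hours post fertilization (hpf) and at 48 hpf. Total RNA of MO2-ers2a embryos was labelled with Cy5 and that of MO-control embryos with Cy3, and 1 Agilent array was hybridised at each time, with no dye swap, so a probe's dye effect and a difference between the groups cannot be told apart. A translation block leaves the transcript in place, so the array does not check the knockdown; the labels used here name neither the strain nor the number of embryos per RNA sample. With 1 array per time no test between the groups could be made and no p-value is given. A name is called higher or lower only by size, at 2-fold or more, which is 1.0 on the log2 scale.

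A spot counted as measured when both channels, after subtraction of local background, exceeded the mean plus 2.6 SD of the negative control spots: 24.4 scanner units for Cy5 and 59.9 for Cy3 at 8 hpf, and 27.7 and 70.1 at 48 hpf. This held for 44.4% and 47.9% of the spots. Spots of 1 name differed with a pooled SD of 0.312 (log2) at 8 hpf and 0.230 at 48 hpf, which is spread within an array and not between embryos. Every log2 ratio below is MO2-ers2a over MO-control after loess normalization, relative to the bulk of the array's spots. Before loess, Cy5 signals were at the median 1.85 times the Cy3 signals at 8 hpf and 1.49 times at 48 hpf, so equal raw signals do not mean a log2 ratio of 0. The RNA came from whole embryos, in which fewer cells of a type and less RNA per cell cannot be told apart. The labelled stages were checked with marker lists. All 14 gastrula genes were measured at 8 hpf, and the 9 with Cy3 signal at both times were all lower at 48 hpf by 2-fold or more. All 13 genes of the hatching period were measured at 48 hpf, and 6 of the 7 with Cy3 signal at both times were higher there by 2-fold or more. Between the groups, the hatching-period genes had a median log2 ratio of -0.58 at 48 hpf, with 11 of 13 below 0, and -0.07 at 8 hpf, with 5 of 7 below 0. The gastrula genes had medians of 0.10 at 8 hpf, with 9 of 14 above 0, and 0.01 at 48 hpf, with 5 of 9 above 0. The part of such stage differences in the solute carrier ratios was not tested.

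As background, solute carriers work either by facilitated diffusion or by coupling to a gradient of sodium, protons or another solute. In a zebrafish embryo the yolk is the main nutrient store, and transporters of the yolk syncytial layer, the skin ionocytes, the kidney, the blood and the brain come into use as these tissues form. Plasma membrane carriers set uptake and release, SLC30 and SLC39 proteins move zinc in opposite directions relative to the cytosol, and SLC25 proteins carry metabolites across the inner mitochondrial membrane.

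At 8 hpf, 4 solute carriers were at least 2-fold higher in MO2-ers2a embryos: slc1a3 (a glial glutamate transporter), slc25a3l (a mitochondrial phosphate carrier), slc39a13 (a zinc transporter of the secretory pathway) and slc40a1 (ferroportin, the iron exporter). The glycine transporter slc6a9 was the 1 member at least 2-fold lower. At 48 hpf, slc16a9a, of the monocarboxylate transporter family, was the 1 member at least 2-fold higher, and 0 members were lower by that size. Of the 64 members measured at 8 hpf, 6.25% passed 2-fold upward and 1.56% downward, against 2.29% and 2.27% of all names measured on the array. Of the 71 measured at 48 hpf, 1.41% passed it upward and 0% downward, against 1.26% and 1.27% of all names. The call at each of these 6 names rests on 1 measured spot. In the authors' deposited table, put on the log2 scale, slc1a3 stood at 2.26, slc25a3l at 2.88, slc39a13 at 1.97, slc40a1 at 2.003 and slc6a9 at -2.26 at 8 hpf, and slc16a9a at 1.45 at 48 hpf.

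Most members differed little between MO2-ers2a and MO-control embryos. At 8 hpf their log2 ratios ran from -1.05 to 2.22 with a median of 0.01, 32 lay above 0 and 32 below, and 48 of the 64 were within 0.5 of 0, against 79.4% of all names measured. At 48 hpf they ran from -0.89 to 1.15 with a median of -0.02, 34 above 0 and 37 below, and 84.5% were within 0.5 of 0, against 82.4% of all names. The medians over all names were -0.02 at both times. Of the 96 names, 58 were measured on both arrays, 6 at 8 hpf only, 13 at 48 hpf only and 19 on neither. None of the 58 was past 2-fold at both times, and 31 lay on the same side of 0 at both, 16 above and 15 below. The absence of such a name depends on the processing. In the authors' deposited table slc16a9a was past 2-fold at both times, at 1.77 and 1.45. It also was with plain background subtraction (1.13 and 1.37), and with no loess and centring on all spots (1.09 and 1.48).

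**Figure D1:**
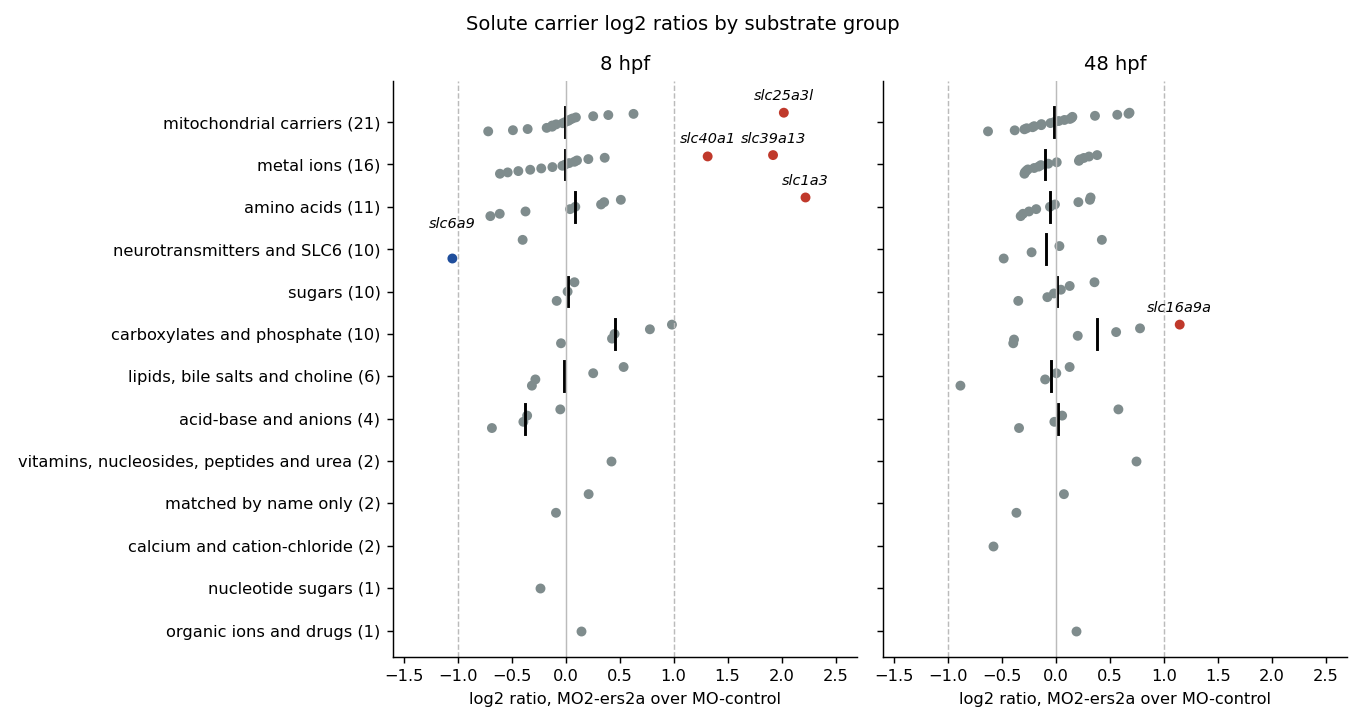
Log2 ratio of MO2-ers2a over MO-control (x axis) for each measured solute carrier name, in rows by substrate group with the number of names in brackets, at 8 hpf (left) and 48 hpf (right). Points are names, black bars are medians of groups with 3 or more measured names, dashed lines mark 2-fold, and coloured points lie past it: 5 names at 8 hpf and 1 at 48 hpf.

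Log2 ratios were spread less widely among members with bright Cy3 spots. At 8 hpf the 22 members with a Cy3 signal of 1000 scanner units or more had log2 ratios between -0.61 and 0.98 (SD 0.353), and the 42 dimmer ones between -1.05 and 2.22 (SD 0.702). All 5 members past 2-fold at 8 hpf were in the set dimmer in Cy3. Cy3 is the divisor of the ratio, so this split and the log2 ratios are not independent. In Cy5 the measured spots of these members read 5656 units (slc1a3), 3470 (slc39a13), 715 (slc25a3l), 365 (slc40a1) and 45 (slc6a9). Of the bright members, slc16a9b stood just inside 2-fold at 8 hpf, at 0.98. It was past 2-fold in the authors' deposited table (1.07) and with plain background subtraction (1.025). At 48 hpf the range was -0.89 to 0.32 for 28 bright members (SD 0.264) and -0.59 to 1.15 for 43 dimmer ones (SD 0.383), which include slc16a9a. Where a name had several measured spots, the spread between its highest and lowest log2 ratio was 0.314 at the median and 0.844 at most over 25 names at 8 hpf, and 0.123 and 0.654 over 24 names at 48 hpf. All spots lay on the same side of 0 for 12 of the 25 names and for 20 of the 24.

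The amino acid transporters included the largest log2 ratio of all members. For slc1a3, which is now slc1a3a and clears glutamate into glia, the single spot read 5656 units in MO2-ers2a and 569.5 in MO-control embryos at 8 hpf, a log2 ratio of 2.22 or 4.66-fold higher. At 48 hpf it read 17830 in MO2-ers2a and 7907 in MO-control embryos, a log2 ratio of 0.31. The related glutamate transporter slc1a2 read 390.5 units in MO2-ers2a and 284.5 in MO-control embryos at 8 hpf, a log2 ratio of -0.37. At 48 hpf it read 23613 units in MO2-ers2a and 15203 in MO-control embryos, a log2 ratio of -0.25. The neutral amino acid transporter slc1a4 had the lowest log2 ratio of the group at 8 hpf, -0.70, from 452 units in MO2-ers2a and 409 in MO-control embryos. The 3 SLC1 names therefore did not share a direction at 8 hpf.

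Over the 9 amino acid transporters measured at each time, the median log2 ratio was 0.09 at 8 hpf and -0.06 at 48 hpf. At 48 hpf all 9 were within 0.5 of 0. The highest there was slc38a3, a sodium-coupled carrier now named slc38a5b, at 0.32, with 3948 units in MO2-ers2a and 1842 in MO-control embryos. The lowest was slc7a4, of the cationic amino acid family, at -0.33, and -0.12 in the authors' deposited table. Its spot read 35.5 units in MO2-ers2a and 74 in MO-control embryos, close to the limits of 27.7 and 70.1. The heavy subunit slc3a2, which brings exchanger light subunits to the cell surface, stood at 0.36 and 0.21 at 8 and 48 hpf, and slc7a6, one such light subunit, stood at -0.61 at 8 hpf and was not measured at 48 hpf. The cationic amino acid transporter slc7a2 had only Cy5 signal above the limit at 8 hpf, on 1 of its 2 spots. That spot read 142 units in MO2-ers2a against 34 in MO-control embryos, which bounds it at 1.94-fold higher or more. The other spot read 20 units in MO2-ers2a and 33 in MO-control embryos, below both limits. The 1.94-fold bound was the largest among names with signal in 1 channel only over all their spots. The mitochondrial carrier slc25a10, whose spots contradict each other, is described with its group.

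Of the neurotransmitter transporters and their SLC6 relatives, only 2 of 10 names were measured at 8 hpf and 4 at 48 hpf. Glycine transporter slc6a9 clears glycine at synapses. Of its 3 spots, 1 was measured at 8 hpf, with 45 units in MO2-ers2a and 121 in MO-control embryos, a log2 ratio of -1.05, or 2.07-fold lower. The other 2 spots were below the limits in both channels, and the median over all 3 spots was 0.01. The same spot gave -0.48 at 48 hpf, the lowest value of the group at that time. The other 2 spots gave 0.26 and 0.05 there, with Cy3 signals of 61 and 67.5 units, just below the limit of 70.1. The GABA transporter slc6a13 had a log2 ratio of -0.40 at 8 hpf, from spots of -0.34 and -0.46, and 0.03 at 48 hpf. The creatine transporter slc6a8 was the highest of the group at 48 hpf, at 0.42. The serotonin, dopamine and vesicular glutamate transporter names (slc6a4a, slc6a4b, slc6a3, slc17a6 and slc17a6l) were measured on neither array.

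Among the metal ion transporters, 15 of 16 names were measured at 8 hpf and 14 at 48 hpf, with medians of 0.00 and -0.11. The zinc transporter slc39a13 read 3470 units in MO2-ers2a and 432 in MO-control embryos at 8 hpf, a log2 ratio of 1.92 or 3.79-fold higher. At 48 hpf its readings were 307 in MO2-ers2a and 183 in MO-control embryos, a log2 ratio of 0.21. Ferroportin, slc40a1, was measured on 1 of 3 spots at 8 hpf, with 365 units in MO2-ers2a and 68.5 in MO-control embryos, a log2 ratio of 1.31 or 2.49-fold higher. This MO-control signal was close to the Cy3 limit of 59.9. The other 2 spots of slc40a1 stayed between 11 and 35 units in both channels, and without the filter on dim spots the name stood at 0.29, under 2-fold. At 48 hpf 2 of its spots were measured and gave -0.06 and -0.34, so the name was near or below 0 there.

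The other zinc transporters were within 2-fold. Counting slc39a13, the 6 measured SLC39 names, which bring zinc into the cytosol, had a median of -0.01 at 8 hpf, 3 above and 3 below 0, and the 4 measured at 48 hpf had a median of 0.23. The 6 measured SLC30 names, which take zinc out of the cytosol, had a median of -0.10 at 8 hpf, and 6 of the 7 measured at 48 hpf were below 0, with a median of -0.16. Among the members, the lowest metal transporter at both times was slc30a5, which loads zinc into the secretory pathway: its 2 spots gave -0.67 and -0.55 at 8 hpf and -0.34 and -0.25 at 48 hpf. The highest member at 48 hpf was the zinc importer slc39a1, at 0.38 from spots of 0.64 and 0.13, against -0.54 at 8 hpf from spots of -0.33 and -0.75. Under clone names outside the member list, slc39a9 stood at -0.86 and -0.15 at 8 and 48 hpf, and slc39a3 at -0.44 and 0.41. The copper importer slc31a1 was close to 0 at both times, at 0.00 and 0.01.

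Mitochondrial carriers of the SLC25 family were the largest group, with 17 of 21 names measured at 8 hpf and 19 at 48 hpf. Their medians were 0.00 and -0.02. The phosphate carrier slc25a3l, now slc25a3a, had 715 units in MO2-ers2a and 74 in MO-control embryos at 8 hpf, a log2 ratio of 2.02 or 4.06-fold higher. Its MO-control signal was close to the Cy3 limit. At 48 hpf it read 197 units in MO2-ers2a and 185 in MO-control embryos, a log2 ratio of -0.27. Its copy on the array, slc25a3 (now slc25a3b), had 3 spots, the brightest with 69490 units in MO2-ers2a and 31876 in MO-control embryos at 8 hpf. The 3 spots of that copy gave -0.19, 0.33 and -0.13 at 8 hpf and -0.05, -0.01 and -0.13 at 48 hpf.

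The other mitochondrial carriers stayed within 2-fold. The lowest at 8 hpf was slc25a16, a carrier linked to coenzyme A, at -0.72, from 1030 units in MO2-ers2a and 873 in MO-control embryos. At 48 hpf it stood at 0.67, from 958 in MO2-ers2a and 367 in MO-control embryos. The highest at 48 hpf was slc25a37, mitoferrin, which brings iron into the mitochondria of blood precursors, at 0.68 from 1 of its 3 spots, and its relative slc25a28 had 4 measured spots between 0.18 and 0.83. At 8 hpf slc25a37 stood at 0.00, from spots of -0.30 and 0.29, and slc25a28 at -0.18, from 4 spots between -0.20 and 0.43. The lowest at 48 hpf was the citrate carrier slc25a1, with 2 spots at -0.63 each, and it also lay below 0 at 8 hpf, with spots of -0.35 and -0.36. The ADP/ATP carrier slc25a5 stood at 0.02 at 8 hpf and -0.38 at 48 hpf. The dicarboxylate carrier slc25a10 got no ratio at 8 hpf, because 1 of its spots had signal only in MO2-ers2a (104 units against 43 in MO-control embryos) and the other only in MO-control (6.5 units in MO2-ers2a against 351).

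The carboxylate and phosphate transporters had the highest median of the groups with 3 or more measured names at both times, 0.45 at 8 hpf (5 names) and 0.38 at 48 hpf (6 names). The 48 hpf value depends on dim spots: a stricter filter gave -0.09, below the medians of acid-base and amino acid transporters, and no filter gave 0.14. Its highest names at 8 hpf were the copies slc16a9a and slc16a9b, related to the lactate carriers. For slc16a9a the single spot read 480.5 units in MO2-ers2a and 131 in MO-control embryos at 48 hpf, a log2 ratio of 1.15 or 2.21-fold higher. At 8 hpf it read 195 units in MO2-ers2a and 63 in MO-control embryos, a log2 ratio of 0.78, and 1.77 in the authors' deposited table. For slc16a9b, 2 spots read 16965 and 1275 units in MO2-ers2a against 4415 and 277.5 in MO-control embryos at 8 hpf, with log2 ratios of 0.81 and 1.15. At 48 hpf the same spots read 3085 and 224 units in MO2-ers2a against 1164 and 113 in MO-control embryos, with log2 ratios of 0.63 and 0.48. All measured spots of both copies were therefore above 0 at both times, and slc16a9b at 8 hpf, at 0.98, was the member just inside 2-fold. In the authors' deposited table slc16a9b stood at 1.07 at 8 hpf, past 2-fold.

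**Figure D2:**
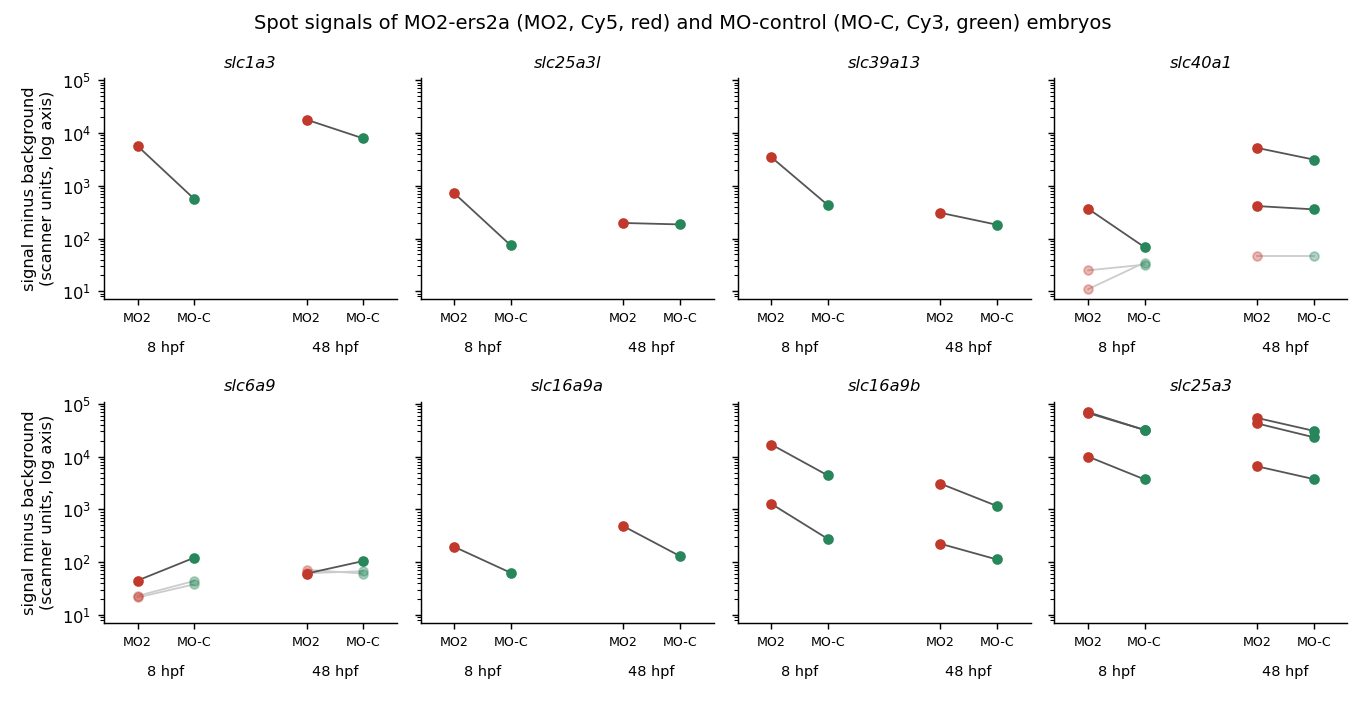
Background-subtracted spot signals (y axis, scanner units, log scale) of the 6 members past 2-fold and of the copies slc16a9b and slc25a3, in MO2-ers2a (Cy5, red) and MO-control (Cy3, green) embryos at 8 and 48 hpf. Lines join the channels of a spot, and pale points are spots below the limit. The slc1a3, slc25a3l and slc39a13 lines are steep at 8 hpf and shallower at 48 hpf, and the slc16a9a and slc16a9b lines slope the same way at both times.

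Elsewhere in that group, slc16a3, a lactate exporter now named slc16a3b, was lowest at 8 hpf, at -0.04, and stood at -0.39 at 48 hpf. The dicarboxylate transporter slc13a2 was lowest at 48 hpf, at -0.40, from 3536 units in MO2-ers2a and 2719 in MO-control embryos. The sodium-phosphate transporters slc20a1a and slc20a1b stood at 0.78 and 0.20 at 48 hpf, and slc20a1b at 0.45 at 8 hpf. The folate transporter slc46a1, outside this group, stood at 0.42 at 8 hpf and 0.74 at 48 hpf, from 289.5 units in MO2-ers2a and 114 in MO-control embryos at the later time.

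All 4 acid-base and anion transporters lay below 0 at 8 hpf, relative to the median of all names, with a median of -0.38. Centred on all spots, that median was 0.21 where all names stood at 0.57. At 48 hpf 2 lay above and 2 below, with a median of 0.02. The lowest at 8 hpf and highest at 48 hpf was slc4a2, a chloride-bicarbonate exchanger: its brightest spot read 567 units in MO2-ers2a and 494 in MO-control embryos at 8 hpf (-0.68), and 2645 in MO2-ers2a and 900 in MO-control embryos at 48 hpf (0.79). With its second measured spot at 0.37, the name stood at 0.58 at 48 hpf. Without the filter on dim spots it stood at -0.07 at 8 hpf, and the median of the 4 names at -0.06. The highest at 8 hpf and lowest at 48 hpf was the anion transporter slc26a11, at -0.05 and -0.34. Its spots at 8 hpf gave -0.13 and 0.03, and with the stricter filter or the brightest spot it stood at 0.03, above 0. The sodium-proton exchanger slc9a8 stood at -0.36 and 0.06, and slc26a5, known as prestin of the ear's hair cells, at -0.39 and -0.02. At 8 hpf the slc9a8 value comes from 1 of 2 spots. The other gave 0.36, from 74 units in MO2-ers2a and 48.5 in MO-control embryos, below the Cy3 limit.

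Lipid, bile salt and choline transporters had medians of -0.01 at 8 hpf and -0.05 at 48 hpf over 4 names each. The fatty acid transport protein slc27a2 (now slc27a2a) had the lowest log2 ratio of all members at 48 hpf, -0.89 or 1.85-fold lower, from 5304 units in MO2-ers2a and 5615 in MO-control embryos. At 8 hpf it stood at 0.25. Its relative slc27a6 was the highest of the group at 8 hpf, at 0.54, and the choline transporter slc44a4 the lowest, at -0.31. The highest at 48 hpf was slc10a4, at 0.13. Both slc44a4 at 8 hpf and slc10a4 at 48 hpf had MO-control signals close to the Cy3 limit, at 62 and 71.5 units. With no loess and centring on measured spots they stood at -0.95 and -0.26. The acetyl-CoA transporter slc33a1 stood at -0.28 and 0.00.

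The sugar group, set by family number, was measured at 3 of 10 names at 8 hpf and 6 at 48 hpf, all within 0.5 of 0. It takes in all SLC5 names, a family that carries glucose and other solutes, so not every name in it is a sugar transporter. The SLC5 name slc5a8l was among the 6 at 48 hpf, at 0.045, but at 1.70 in the authors' deposited table. Its 1 measured spot read 78 units in MO2-ers2a and 77 in MO-control embryos, close to the Cy3 limit of 70.1. At 8 hpf the measured names ran from slc2a8l (now slc2a8) at -0.08 to slc37a2, a sugar phosphate transporter, at 0.08. At 48 hpf they ran from the fructose transporter slc2a5 at -0.35, its 2 spots alike, to the glucose transporter slc2a12 at 0.36, from spots of 0.32 and 0.39. The sodium-coupled glucose transporters slc5a1 and slc5a2 and the iodide transporter slc5a5 were measured on neither array. Of groups with 1 measured name, the cardiac sodium-calcium exchanger slc8a1a stood at -0.59 at 48 hpf from 1 of 2 spots, the nucleotide sugar transporter slc35a5 at -0.24 at 8 hpf, and slc22a18 at 0.15 and 0.18. The non-transporters slc7a6os and slc9a3r2 lay between -0.37 and 0.21.

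The Cy3 channel carried MO-control RNA at both times and gives the change of each transcript with stage. A log2 change below is Cy3 at 48 hpf minus Cy3 at 8 hpf after scaling the arrays to each other, and compares 1 array with another. Of the 59 members with Cy3 signal at both times, 8 were at least 2-fold higher at 48 hpf (13.6%) and 14 at least 2-fold lower (23.7%). Of all 13528 names with Cy3 signal at both, 15.4% were higher and 26.2% lower. The median change was -0.29 for members and -0.31 for all names. The scaling between the arrays sets this level: at each array's 75th percentile of Cy3 the medians were 0.34 and 0.32, with 16 members higher and 10 lower, and with spike-in scaling 0.85 and 0.83, with 25 higher and 7 lower. Changes below are on the first scale and are best read against its median over all names. Another 12 members had Cy3 signal at 48 hpf only and 6 at 8 hpf only. At neither time were 19 members above the limit, 19.8% of the list against 45.9% of all names.

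By substrate, all 3 SLC1 amino acid transporters were higher at 48 hpf: slc1a2 with 15203 Cy3 units at 48 hpf and 284.5 at 8 hpf (log2 change 5.76, 54.3-fold), slc1a3 with 7907 at 48 hpf and 569.5 at 8 hpf (4.14, 17.6-fold), and slc1a4 with 2.92 on the log2 scale. The ferroportin spot measured at both times had 3127 Cy3 units at 48 hpf and 68.5 at 8 hpf, a log2 change of 5.12. Its 8 hpf reading was close to the limit. The fatty acid transporter slc27a2 (1.86), the aspartate-glutamate carrier slc25a12 (1.42), slc22a18 (1.38) and the choline transporter slc44a4 (1.37) completed the 8. The slc22a18 value comes from 1 of its 2 spots. The other went the opposite way (-0.71), with 81 Cy3 units at 8 hpf and 64, below the limit, at 48 hpf. All 3 sugar transporters with Cy3 signal at both times were lower at 48 hpf, by 2-fold or more on the first scale and for 2 of 3 with either other scaling. They were slc2a12 (spots of -4.52 and -4.41), slc2a8l (-3.64) and slc37a2 (-1.05).

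Metal ion transporters held 5 of the 14 members that were lower at 48 hpf, against 1 that was higher, and with spike-in scaling 3 were lower and 4 higher. The zinc importer slc39a1 had log2 changes of -4.04 and -3.70 on its 2 spots, from 177.5 and 93.5 Cy3 units at 48 hpf and 3185 and 1257 at 8 hpf. The copper importer slc31a1 stood at -1.94, the zinc exporter slc30a1 at -1.65, slc39a13 at -1.42 and slc39a6 at -1.40. All 4 SLC39 members with signal at both times were below 0, against 3 of 4 with spike-in scaling. Under clone names outside the member list, slc39a9 changed by -1.16 and slc39a3 by 1.43, so SLC39 genes did not all go the same way. Outside the metal group, slc43a1, which carries large neutral amino acids, stood at -1.78 on the 1 spot with Cy3 signal at both times, the scaffold gene slc9a3r2 at -1.65 and slc16a9b at -1.53. Of the mitochondrial carriers, 16 of 18 were within 2-fold, with a median of 0.00, against 14 of 18 at the 75th percentile and 8 of 18 with spike-in scaling. One with signal at 48 hpf only was slc25a4, an ADP/ATP carrier of muscle and heart, with 29438 Cy3 units at 48 hpf and 51 at 8 hpf, which was below the limit, so at least 452-fold higher at 48 hpf.

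The other members with Cy3 signal at 48 hpf only had smaller bounds. For slc13a2 it was at least 44.8-fold higher at 48 hpf, with 2719 units there and 47.5 at 8 hpf, for the glycine transporter slc6a5 4.06-fold and for slc2a5 3.98-fold, while slc20a1a just reached 2-fold. Of those with signal at 8 hpf only, the lactate carrier slc16a1 was at least 3.28-fold lower at 48 hpf and the zinc importer slc39a10 at least 2.04-fold lower. The remaining bounds were under 2-fold. A bound sets the brighter reading against the higher of the dim reading and the lowest signal called measured. It holds on the first scale only, and the other scalings between the arrays would move it.

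**Figure D3:**
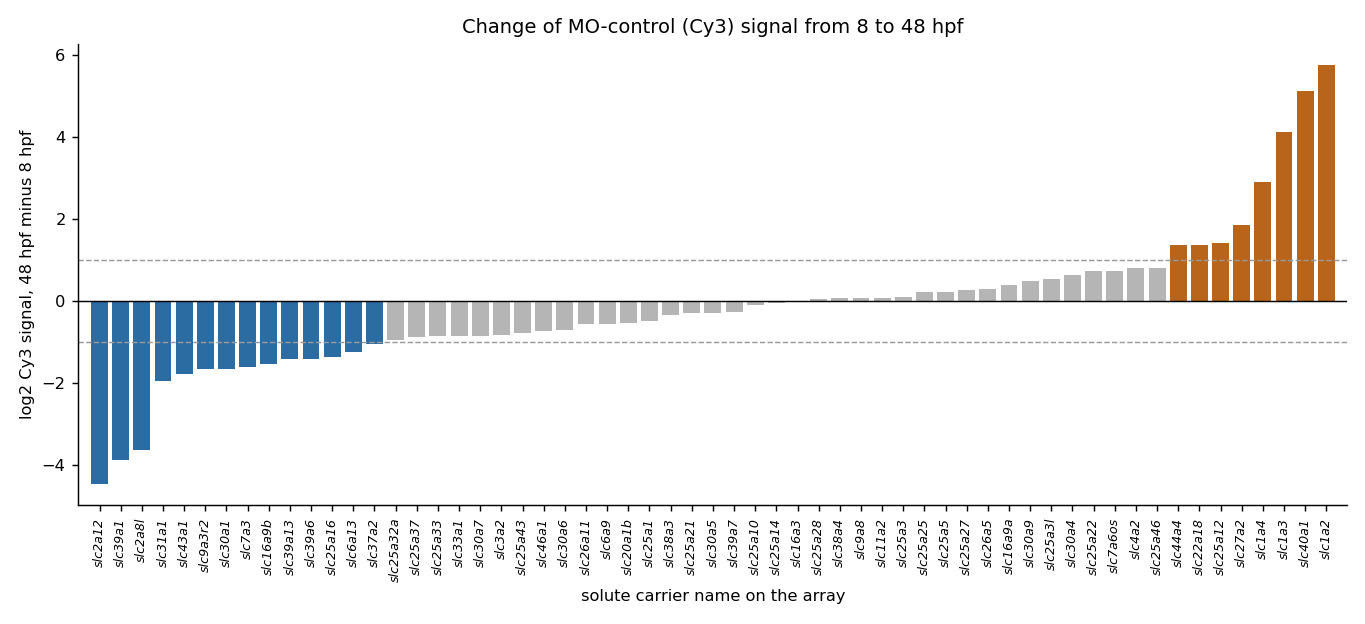
Change of Cy3 signal, which carried MO-control RNA, from 8 to 48 hpf (y axis, log2 units, 48 hpf minus 8 hpf) for the 59 solute carriers with Cy3 signal at both times, sorted by size along the x axis. Orange bars are at least 2-fold higher at 48 hpf (8 names), blue bars at least 2-fold lower (14 names), grey bars lie within 2-fold, and dashed lines mark 2-fold.

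The log2 ratios of MO2-ers2a over MO-control embryos were then set beside the stage changes. The Cy3 signal enters both measures, so they are not independent and no relation between them is tested. Members whose Cy3 signal was lower at 48 hpf had a median log2 ratio of 0.01 at 8 hpf and 0.10 at 48 hpf, with 10 of 14 above 0 at the later time. Members whose Cy3 signal was higher at 48 hpf had medians of 0.06 and -0.06, with 5 of 8 below 0 at the later time, and members within 2-fold had 0.01 and -0.02. The 12 members with Cy3 signal at 48 hpf only had a median of -0.18, with 8 below 0. Over all names the same classes gave 0.09 at 48 hpf for names lower at that stage, -0.10 for names higher and -0.14 for names with signal at 48 hpf only, so members lay near the array's values. With classes set by the mean of both channels, the 14 members lower at 48 hpf had a median of 0.05 at 48 hpf, 9 of 14 above 0, and the 9 higher had -0.01. Of the 5 members past 2-fold at 8 hpf, slc1a3 and slc40a1 were among those higher at 48 hpf by Cy3, slc39a13 was among those lower, and slc25a3l and slc6a9 were within 2-fold.

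**Figure D4:**
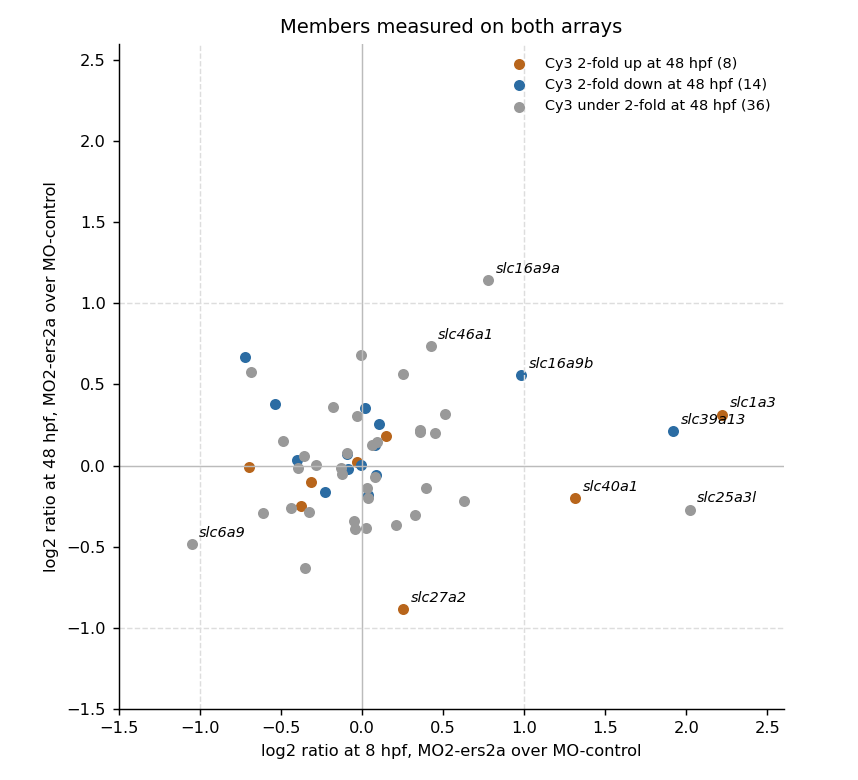
Log2 ratio of MO2-ers2a over MO-control at 8 hpf (x axis) and 48 hpf (y axis) for the 58 solute carriers measured on both arrays, coloured by the change of Cy3 signal between the stages. Dashed lines mark 2-fold: 4 names lie right of it and 1 left of it at 8 hpf, 1 lies above it at 48 hpf, and none lies past it on both axes.

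Zebrafish keep duplicate copies of many genes, and 11 such pairs had at least 1 member name here. The slc25a3 copies were the only pair with log2 ratios at least 2-fold apart: slc25a3l at 2.02 and slc25a3 at -0.13 at 8 hpf differed by 2.15, and at 48 hpf by -0.22. The slc16a9 copies differed by -0.20 at 8 hpf and 0.59 at 48 hpf (a minus b). The slc3a2 copies lay on opposite sides of 0 at both times, slc3a2a (slc3a2 on the array) at 0.36 and 0.21 and slc3a2b (zgc:55813 on the array) at -0.25 and -0.43. By stage, Cy3 of the slc43a1 copies went opposite ways, with log2 changes of -1.78 for slc43a1a and 1.95 for slc43a1b (zgc:158383). The slc43a1a change came from 1 spot. Of the 3 slc43a1b spots, 0 were measured in both channels at 8 hpf. The slc25a55 copies, of which slc25a22 on the array is a, changed by 0.73 and 3.13.

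A further 136 array names, mostly clone names, now belong to genes with an slc symbol, and 81 and 86 of them were measured at 8 and 48 hpf. Their median log2 ratios were -0.08 and 0.01. At 8 hpf 3 were 2-fold or more higher and 0 lower, and at 48 hpf 1 was higher and 0 lower. The shares higher, 3.7% and 1.16%, stand beside 2.29% and 1.26% of all names. The nucleotide sugar family gene slc35e4 was higher at both times, at 1.71 from 1245 units in MO2-ers2a and 177 in MO-control embryos at 8 hpf, and at 1.02 from 373 units in MO2-ers2a and 114 in MO-control embryos at 48 hpf. The nucleotide sugar transporter slc35d1b stood at 1.08 at 8 hpf, the median of 3 spots, and 0.52 at 48 hpf. For slc43a2b, related to slc43a1, 1 array name stood at 1.08 and another at -0.20 at 8 hpf, with 620 and 22363 units in MO2-ers2a against 143.5 and 11396 in MO-control embryos, so its probes disagreed. The GABA transporter slc6a1b was lowest at 48 hpf, at -0.96.

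Solute carriers coupled to sodium or protons depend on gradients set by ion pumps. Of the Na,K-ATPase subunits, which build the sodium gradient, 6 of 15 were measured at 8 hpf (median 0.28) and 14 at 48 hpf (0.08). The beta subunit atp1b1a was 2-fold or more higher at 8 hpf, at 1.78, with 12021 units in MO2-ers2a and 1582 in MO-control embryos. The lowest was atp1a1b (-0.27) at 8 hpf, and at 48 hpf the extremes were atp1a2a (0.50) and atp1b2b (-0.91). V-type proton ATPase subunits, which acidify vesicles, had medians of 0.02 at 8 hpf (19 of 20 measured) and -0.29 at 48 hpf (20 measured, 17 below 0). The extremes were atp6v0cb (1.12) and atp6v0a1b (-0.98) at 8 hpf, and atp6v0a1a (0.89) and atp6v0a1b (-1.03) at 48 hpf. The atp6v0a1a value is the median of 2 measured spots. Its median signals at 48 hpf were 7213.5 units in MO2-ers2a and 1300 in MO-control embryos, further apart than that log2 ratio. Both atp6v0a1b values come from 1 measured spot of the same array name. At 8 hpf that spot read 25 units in MO2-ers2a embryos, close to the Cy5 limit, and 98 in MO-control embryos. At 48 hpf it read 41 units in MO2-ers2a and 136 in MO-control embryos. Another array name of atp6v0a1b was not measured at 8 hpf and stood at -0.35 at 48 hpf. Ionocyte factors and carbonic anhydrases, with medians of 0.11 and 0.15, ran from ca2 (-0.86) to the ammonia channel rhbg (0.67) at 8 hpf and from cahz (-0.67) to ca15a (0.66) at 48 hpf.

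Other transporter families gave the following. ABC transporters had medians of 0.28 and 0.13 over 11 measured names at each time, and abcc2, an exporter of organic anion conjugates, was lower at 8 hpf at -3.48, with 60 units in MO2-ers2a and 724.5 in MO-control embryos, and stood at -0.26 at 48 hpf. The highest ABC names were abcg2c (0.95) at 8 hpf and abcf1 (0.60) at 48 hpf. Aquaporins had medians of -0.67 at 8 hpf (5 of 12 measured, 4 below 0) and -0.34 at 48 hpf (9 measured, 5 below 0). The aquaglyceroporin aqp9a was lowest at both times, at -1.74 and -0.93, and the highest were aqp10a (0.53) at 8 hpf and aqp8a.1 (0.21) at 48 hpf. Among organic anion transporters, slco1d1 stood at -0.84 and 0.80, slco1c1 at 0.23 at 8 hpf and slco2a1 at 0.07 at 48 hpf. SLC genes with other names and SLC chaperones had medians of -0.35 and -0.13 over 10 measured names at each time, from nptna (-0.76) to the haem exporter flvcr1 (0.39) at 8 hpf and from nptnb (-0.54) to the pyruvate carrier subunit mpc2b (0.47) at 48 hpf.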

How the data were processed

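Scanner intensity values of 2 arrays were deposited by the authors as Agilent Feature Extraction output, per the file headers, with no version used here. The authors' deposited table of log10 ratios for the same spots has column medians of 0 and exact zeros in 36.8% and 34.7% of spots; its slopes on raw log2 ratios, 0.293 and 0.298 over bright spots, fit log10 of Cy5 over Cy3, and its exact dye correction is not given in the sources used here. It served as an alternative.

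Median signals were background-corrected (normexp, offset 50) and loess-normalized within each array, control spots at weight 0, with limma 3.58.1 in R 4.3.3; summaries used Python 3.11.15 and pandas 2.3.3. Each name was given the median log2 ratio of the spots measured for it. Stage changes used Cy3 after loess and Aquantile scaling. The normalization step was tested by moving the Cy5 signal of chosen bright spots by 2-fold. That test did not cover dim spots. Files had 0 columns without a sample. Current symbols came from RefSeq (assembly GRCz12tu) and Ensembl tables. With 1 array per time there was no test, and the number of arrays limits the precision.

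Names in the text are those past 2-fold, the highest and lowest of each substrate group and transporter list, the 6 largest stage changes each way, bounds of 2-fold or more and duplicate pairs; others were chosen after their values were seen. Members and lists were chosen with earlier results of these data known.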

Additional observations from a re-analysis of the deposited data

Results flagged for a closer look

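The mitochondrial phosphate carrier slc25a3l was flagged because its log2 ratio of MO2-ers2a over MO-control lay on opposite sides of 0 at the 2 times, and the values differed by 4-fold or more. It stood at -0.27 at 48 hpf and at 2.02 at 8 hpf, a difference of -2.29 (48 hpf minus 8 hpf). The difference was not tested, because there was 1 array per time, and each value comes from 1 spot.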

How the results depend on the processing

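The number of arrays limits the precision of every value, and signal near background limits the dim members. Against 4 members higher and 1 lower at 8 hpf, recounts gave 10 and 0 with no loess and centring on all spots, 2 and 0 with a stricter filter on dim spots, and 0 and 0 among names with 2 or more measured spots, an alternative added after seeing the data. The authors' deposited log ratios and plain background subtraction each gave 6 higher and 1 lower at 8 hpf. Against 1 higher at 48 hpf, the authors' deposited log ratios gave 3, no loess with centring on all spots 5, and the stricter filter and names with 2 or more spots 0. Against 0 lower at 48 hpf, no loess with centring on measured spots gave 1, as did plain background subtraction. No loess with centring on all spots put the median of all measured names at 0.565 and 0.386 and that of members at 0.676 and 0.408; spike-in scaling put the median of all names at -0.259 and 0.059. Without a filter on dim spots slc6a9 stood at 0.005 at 8 hpf, a reversed sign, and slc40a1 at 0.294; the filter removed 2 of the 3 spots of each. Against 8 members higher in Cy3 at 48 hpf, 75th percentile scaling gave 16, spike-in scaling 25 and no filter 13, and against 14 lower, spike-in scaling gave 7; the cause was not tested. Of 135 values of group medians, 117 moved by less than the spread between spots, and 13 of the other 18 came from centring on all spots without loess. Of 430 values of named log2 ratios, 71 moved by more and 1 reversed, with 42 of the 71 from that setting. Of 72 values of named Cy3 changes, 28 moved by more, including all 12 under spike-in scaling. Both groups shared an array at each time, and with 1 array per time no paired test could be made.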
